A study of Mus musculus with 6 samples.

Results

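The genes described are output and feedback genes of the circadian clock in mouse retina: Per1, Per2, Per3, Cry1, Dbp, Tef, Ciart, Nr1d1, Nr1d2 and Npas2. They were taken as all probe sets whose only gene symbol in the platform annotation is one of these names. All 10 genes were found, with 22 of 45037 probe sets, and among 18193 genes that have such a probe set. Per3 has 6 probe sets, Per2 and Tef have 3 each, Dbp, Nr1d2 and Npas2 have 2 each, and Per1, Cry1, Ciart and Nr1d1 have 1 each. A gene is represented by its brightest probe set, judged on the mean of all arrays, unless another is named.

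The circadian clock is a feedback loop of transcription that runs in most cells of the body, and the retina holds its own clock. The activators CLOCK or NPAS2 pair with ARNTL (BMAL1) and bind E-boxes in the genes of their own repressors, the PER and CRY proteins. They also drive Nr1d1 and Nr1d2, which encode the REV-ERB repressors, and the output factors Dbp and Tef, which act on D-boxes. REV-ERBs in turn repress genes with ROR elements, among them Npas2 and, together with E-box and D-box input, Cry1. In a rhythmic tissue the E-box and D-box targets therefore crest at another time of day than the ROR element targets, and a shift in time moves these arms unequally. For the comparison of phases, 8 genes form an E-box and D-box arm, namely the Per genes, Dbp, Tef, Ciart, Nr1d1 and Nr1d2, while the 2 genes Npas2 and Cry1 form the ROR element arm.

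Total RNA of whole retinas was hybridised to 6 single-colour Affymetrix arrays. One set of mice was prCAD -/-, knockouts that lack photoreceptor cadherin, the product of Cdhr1 in photoreceptors, and 3 arrays carry their RNA. The other 3 arrays carry RNA of wild type 129 mice, while no strain is stated for the knockout in the sources used here. Every array held retinas pooled from 3 mice about 4 weeks old, so the spread between arrays is one between pools. The sources used here state neither the hour of collection nor the lighting, so a difference in hour and a difference in genotype or strain cannot be told apart from the labels.

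The labels were checked on Cdhr1 and on retinal markers. Cdhr1 read 3.94, 4.20 and 4.34 in mutant arrays and 11.32, 11.36 and 10.98 in wild type arrays on the log2 scale (limma, adjusted p = 2.18e-05). The 8 named rod photoreceptor markers had median levels between 11.52 and 11.63 in mutant arrays and between 11.57 and 11.96 in wild type arrays. Same-numbered arrays deviated together from their group means, and the arrays numbered 3 stood apart from the others. Markers of tissues that adjoin the retina also differed: all 9 measured genes of the pigment epithelium list and all 10 crystallins were higher in mutant retina, by medians of 0.92 and 0.77. None of either list passed the test by group (0 of 9 and 0 of 10). At an unadjusted p under 0.05 there were 8 of 9 of the pigment epithelium list and 0 of 10 crystallins in limma's fit on group, beside 622 of 18193 genes, and the same counts with same-numbered arrays as pairs, beside 1354 genes. Of the rod markers 7 of 8 were lower in mutant retina, at a median difference of -0.16, with Sag, the rod arrestin gene, the exception (0.26), and 0 of them passed by group.

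Proximal promoters of members show which of these elements lie close to the gene start. RefSeq windows of GRCm38.p6 were found for 9 of the 10 genes, in 11 windows. Per2 had no window, so its promoter was not searched. In the 250 bases before the start both strands were searched for the E-box CACGTG, the variant E-box CACGTT, the D-box as TTATGTAA or TTACGTAA, the nuclear receptor core motif AGGTCA and the cAMP response element TGACGTCA. No matches within a member's window overlapped. The E-box was in windows of 4 members, Ciart, Cry1, Per1 and Tef, and in 6.02% of all 32851 windows. The D-box form TTATGTAA was in the window of 1 member, Per3, and in 0.819% of all windows. The variant E-box was in windows of Cry1 and Nr1d1 (3.85% of all), the core motif in those of Per1 and Nr1d2 (14.0% of all), and the other motifs in no member's window (0.113% for TTACGTAA and 1.55% for TGACGTCA). The windows with an E-box or a D-box are printed 5′ to 3′ along the gene, for Per1 and Tef at the first of their listed starts, with every searched motif in capitals.
Ciart (GRCm38.p6, chr3:95882229-95882478, minus strand): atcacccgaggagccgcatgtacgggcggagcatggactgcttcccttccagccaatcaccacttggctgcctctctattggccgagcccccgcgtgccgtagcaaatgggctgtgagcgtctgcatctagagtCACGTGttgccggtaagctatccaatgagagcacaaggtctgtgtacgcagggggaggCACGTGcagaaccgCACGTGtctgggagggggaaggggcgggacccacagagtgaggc
Per3 (GRCm38.p6, chr4:151044666-151044915, minus strand): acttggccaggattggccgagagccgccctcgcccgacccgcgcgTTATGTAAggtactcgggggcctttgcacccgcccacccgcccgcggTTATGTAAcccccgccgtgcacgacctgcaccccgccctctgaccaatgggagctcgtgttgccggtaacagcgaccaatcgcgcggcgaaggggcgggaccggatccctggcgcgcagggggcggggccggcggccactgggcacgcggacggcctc
Per1 (GRCm38.p6, chr11:69098699-69098948, plus strand): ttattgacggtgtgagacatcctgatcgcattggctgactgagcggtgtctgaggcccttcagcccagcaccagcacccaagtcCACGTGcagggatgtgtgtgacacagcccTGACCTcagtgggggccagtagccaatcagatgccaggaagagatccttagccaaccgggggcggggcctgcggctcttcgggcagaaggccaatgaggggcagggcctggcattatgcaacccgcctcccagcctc
Tef (GRCm38.p6, chr15:81802423-81802672, plus strand): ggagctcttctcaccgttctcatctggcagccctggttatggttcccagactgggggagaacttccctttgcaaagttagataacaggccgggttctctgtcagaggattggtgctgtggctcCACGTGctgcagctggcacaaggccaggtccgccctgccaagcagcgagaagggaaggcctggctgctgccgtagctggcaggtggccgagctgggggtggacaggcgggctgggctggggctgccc
Cry1 (GRCm38.p6, chr10:85185055-85185304, minus strand): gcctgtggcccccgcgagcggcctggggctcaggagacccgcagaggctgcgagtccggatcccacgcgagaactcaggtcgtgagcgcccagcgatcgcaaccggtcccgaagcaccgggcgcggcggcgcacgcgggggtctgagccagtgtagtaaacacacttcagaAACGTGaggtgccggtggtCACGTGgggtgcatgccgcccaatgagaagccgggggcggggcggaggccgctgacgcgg
Ciart holds 3 E-boxes, at 116, 58 and 44 bases before the start, and Per3 holds 2 D-boxes, at 205 and 158 bases. These matches describe the letters of the windows, and no binding was measured.

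No member passed the test of prCAD mutant against wild type. Of 22 probe sets 0 passed in limma's fit on group over all 45037 probe sets, where 0.0111% passed. At an unadjusted p under 0.05 there was 1 of 22, against 3.02% of all. With same-numbered arrays treated as pairs 0 passed again (0.0333% of all did), and 3 had an unadjusted p under 0.05 (7.60% of all), namely Ciart, a dimmer probe set of Nr1d2 and one of Per3. No probe set of a member had groups that lay apart, whereas 3.07% of all probe sets were lower and 4.73% higher in every mutant array than in every wild type array.

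**Figure D1:**
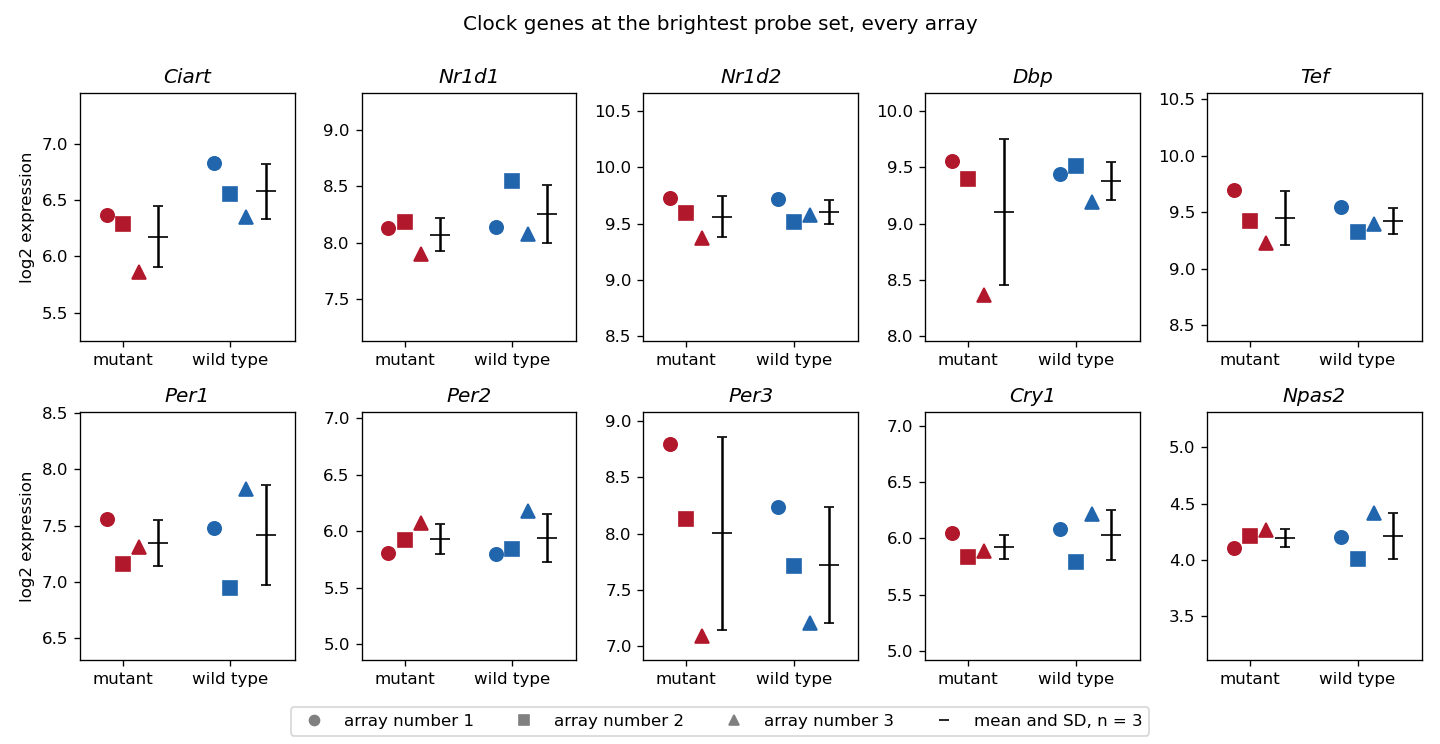
The log2 expression of each of the 10 clock genes at its brightest probe set is plotted for every array, mutant (red) left of wild type (blue), each panel spanning the same log2 range. Marker shapes give the array number, and black bars the mean and SD (n = 3). The groups overlap in every panel, and Dbp and Per3 are spread most widely within the mutant group.

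Ciart, which encodes CHRONO, a repressor of the CLOCK and ARNTL pair, had the smallest p by group among the brightest probe sets. It read 6.37, 6.29 and 5.86 in mutant arrays, against 6.83, 6.55 and 6.35 in wild type arrays. Each mutant array lay below the wild type array of its number, but the highest mutant array was above the lowest wild type array. The difference was -0.40 (SE 0.18, 95% interval -0.82 to 0.01, unadjusted p = 0.0559, limma adjusted p = 1). With the pairs as a block the unadjusted p was 0.00346 and the limma adjusted p 0.441. Its promoter is the one printed above with 3 E-boxes. The other printed E-box promoters belong to Per1, Tef and Cry1, whose differences were -0.07, 0.03 and -0.11. Dbp, Nr1d1, Nr1d2, Npas2 and Per3, with no CACGTG in the window, differed by -0.28, -0.18, -0.04, -0.01 and 0.28. A link between E-boxes and these differences was not tested.

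The REV-ERB genes gave no call either. Nr1d1 encodes REV-ERB alpha, the haem-binding repressor that acts on Arntl, Npas2 and other ROR element targets. It read 8.13, 8.18 and 7.90 in mutant arrays and 8.14, 8.55 and 8.08 in wild type arrays. The mutant array was the lower in every pair, with differences of -0.01, -0.36 and -0.17, for a mean of -0.18 (SE 0.15, interval -0.54 to 0.17). Nr1d2 encodes the related REV-ERB beta, and its 2 probe sets did not give the same picture. The brighter read 9.73, 9.60 and 9.37 in mutant arrays against 9.72, 9.52 and 9.58 in wild type arrays, a difference of -0.04 (SE 0.12). The dimmer read 7.11, 6.82 and 7.71 in mutant arrays against 8.05, 7.71 and 7.77 in wild type arrays, a difference of -0.63 (SE 0.23). Among all member probe sets this dimmer one alone was under 0.05 before adjustment in limma's fit on group (0.0286), and its limma adjusted p was 1. Pairs 1 and 2 differed by -0.93 and -0.89, and pair 3 by -0.05.

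Dbp and Tef encode transcription factors of the PAR bZIP family, which activate D-box genes and carry the rhythm to output genes. Dbp, one of the transcripts with the widest daily swing in many mouse tissues, read 9.55, 9.39 and 8.36 in mutant arrays, against 9.44, 9.51 and 9.19 in wild type arrays. Mutant array 3 was far below the 5 others, and the remaining arrays of both groups lay within about the same range. The difference was -0.28 (SE 0.30, interval -0.99 to 0.44). In the second Dbp probe set array 3 was again the lowest of each group, with 8.76, 8.74 and 7.68 in mutant arrays and 8.68, 8.95 and 8.22 in wild type arrays. Without mutant array 3 the difference of Dbp was 0.09. Tef read 9.70, 9.42 and 9.23 in mutant arrays and 9.55, 9.32 and 9.40 in wild type arrays, a difference of 0.03 (SE 0.14), and its 2 dimmer probe sets differed by -0.39 (SE 0.27) and 0.12 (SE 0.18).

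The Per genes encode the partners of the CRY repressors, and Per1 and Per2 are also induced by light in the brain's central clock. Per1 read 7.56, 7.16 and 7.31 in mutant arrays and 7.48, 6.95 and 7.83 in wild type arrays, with overlapping groups and a difference of -0.07 (SE 0.23). Per2 read 5.81, 5.92 and 6.07 in mutant arrays and 5.79, 5.84 and 6.18 in wild type arrays, a difference of -0.01 (SE 0.13). The dimmer Per2 probe sets differed by -0.14 (SE 0.17) and -0.03 (SE 0.18). Per3 read 8.79, 8.13 and 7.09 in mutant arrays and 8.24, 7.72 and 7.21 in wild type arrays. Here the spread between numbers was larger than that between groups, whose difference was 0.28 (SE 0.44, interval -0.76 to 1.33). Of its 5 dimmer probe sets 4 were lower in mutant retina, by differences of -0.64, -0.40, -0.31 and -0.06, and 1 differed by 0.03. Those at -0.40, -0.31 and -0.06 had means of 4.59, 3.74 and 3.93, under the median of all probe sets (4.76). For those at -0.40 and -0.31, wild type array 3 stood above every other array (5.55 and 4.87), and pair 3 differed by -1.05 and -1.11. The one at -0.64 (SE 0.57) was lower in all 3 pairs and had the smallest unadjusted p with the block of any member probe set (0.00292, limma adjusted p = 0.426). Per3 therefore stands among the higher genes by its brightest probe set, while its mean over all 6, dim ones included, differed by -0.18.

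In the ROR element arm, Cry1, which encodes a repressor of the CLOCK and ARNTL pair, read 6.04, 5.84 and 5.88 in mutant arrays and 6.08, 5.79 and 6.22 in wild type arrays. The difference was -0.11 (SE 0.13, interval -0.42 to 0.21). Npas2, which encodes a partner of ARNTL that can replace CLOCK, read 4.11, 4.21 and 4.26 in mutant arrays and 4.20, 4.01 and 4.42 in wild type arrays, a difference of -0.01 (SE 0.12). The overall median of the probe sets was 4.76 and both means of Npas2 lay under it, so a difference in this gene could be hidden by background. In all, 6 of the 22 probe sets had such a low mean.

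**Figure D2:**
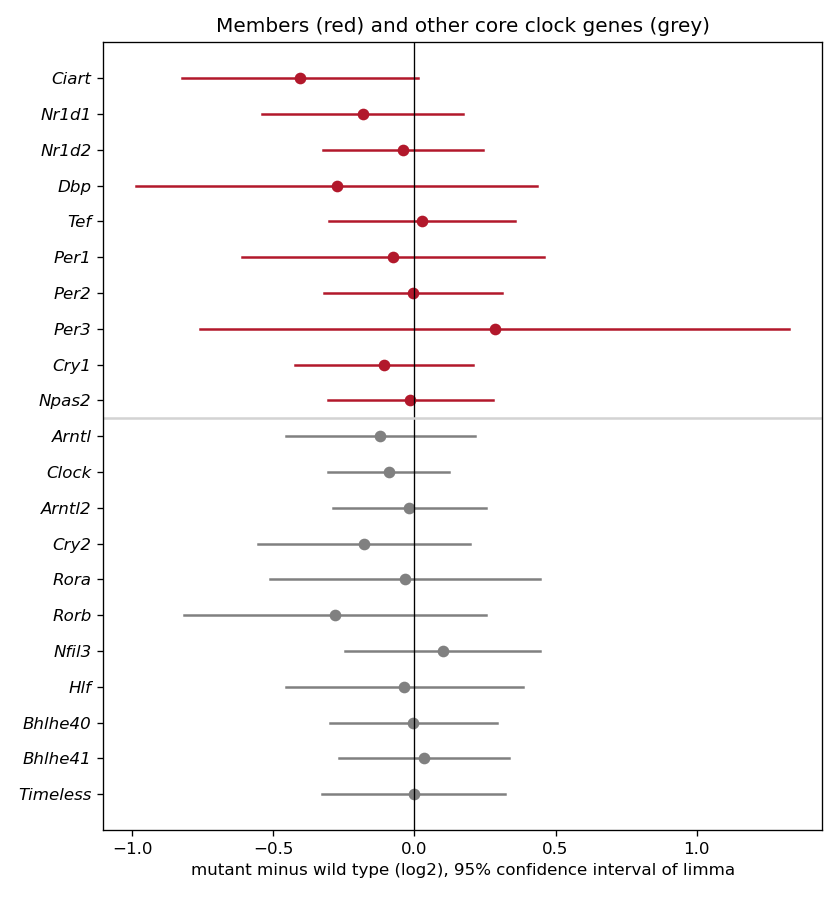
The difference of mutant minus wild type on the log2 scale (horizontal axis) is given with its 95% interval from limma for the 10 clock genes (red) and 11 other core clock genes (grey). Every interval includes 0, and that of Per3, from -0.76 to 1.33, is the widest.

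No steady parting of the arms was seen between the groups. Their medians changed with the settings, but each time by less than the SD between the medians of the pairs. The ROR element arm could hardly show a parting, as it holds only 2 genes. Npas2 is dim, and Cry1 also takes E-box input. In the E-box and D-box arm 6 of 8 genes were lower in mutant retina, at a median difference of -0.06. In the ROR element arm both genes were lower, also at a median of -0.06. Over all 18193 genes the median difference was 0.02, and 7572 were lower. Without both arrays numbered 3 the medians of the arms were 0.04 and 0.03. The E-box and D-box arm had the lower median when the probe sets of each gene were averaged (-0.18, against -0.03 in the ROR element arm) and without mutant array 1 (-0.15 against -0.07). The ROR element arm had the lower one without wild type array 2 (-0.17, against -0.07 in the larger arm). Over all single arrays left out the medians ranged from -0.15 to -0.001 in the larger arm and from -0.17 to 0.04 in the other, and with array weights both were near 0 (0.0013 and 0.0039). The intervals leave room for differences, reaching down to -0.82 in Ciart and -0.99 in Dbp.

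The pairs of same-numbered arrays gave 3 different pictures. In pair 1 the mutant array was lower for 2 of 8 E-box and D-box genes and for 2 of 2 ROR element genes, beside 40.9% of all genes. In pair 2 it was lower for 3 of 8 and for 0 of 2, beside 44.4% of all genes. In pair 3 it was lower for all 8 and for both, beside 47.4% of all genes, at a median of -0.19 for the E-box and D-box arm and of -0.24 for the other. Only in pair 3 of the 3 pairs did all 10 genes lie to the same side of 0, and there both arms lay below it. In that pair the largest differences were -0.83 in Dbp, -0.52 in Per1 and -0.49 in Ciart. Over single probe sets, 5 of 22 were lower in mutant retina in all 3 pairs, against 13.1% of all. They were those of Ciart and Nr1d1, the dimmer of Nr1d2 and 2 of Per3.

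Pair 3 was also the one in which the medians of the tissue and cell marker lists differed most. The rod markers had medians of -0.06, -0.03 and -0.32 within pairs 1, 2 and 3, and 7 of 8 were lower in the mutant array of pair 3. The markers of Müller glia, the radial glia of the retina, had medians of 0.12, 0.10 and 0.42, with 2 of 8 lower in pair 3. The pigment epithelium list had medians of 0.71, 1.03 and 1.39 within pairs 1, 2 and 3, and the crystallins of 0.08, 0.16 and 2.01. The median crystallin level was 11.53, 12.53 and 12.30 in mutant arrays, against 11.46, 12.23 and 10.30 in wild type arrays. That of the pigment epithelium list was 6.50, 7.06 and 6.61 in mutant arrays, against 6.11, 5.99 and 5.21 in wild type arrays. Their part in the clock gene differences of pair 3 was not tested. In bulk retina, fewer cells of a type and less RNA per cell cannot be told apart.

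**Figure D3:**
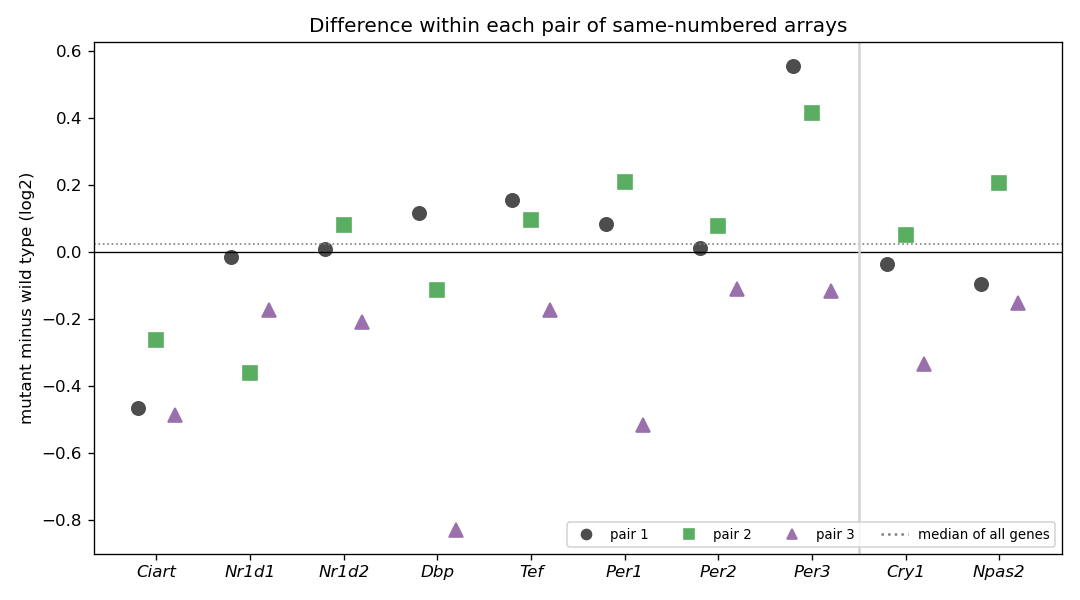
Mutant minus wild type on the log2 scale (vertical axis) is plotted for each gene within pairs 1 (circles), 2 (squares) and 3 (triangles), with the ROR element arm right of the grey line and the median of all genes dotted. All 10 triangles lie below 0, while circles and squares lie on both sides.

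The array number gave calls among the members. In limma's F test of the number, fitted beside group, 2 of 22 probe sets (9.09%) passed, against 3.70% of all probe sets, and 12 of 22 (54.5%) had an unadjusted p under 0.05, against 24.2% of all. Both that passed belong to Per3 (limma adjusted p = 0.0302 and 0.0143). Both shares lay above the background, but probe sets of 1 gene are not independent. The counts moved with single arrays, and so did the share over all probe sets. There were 0 calls among the members without wild type array 2 (0.209% of all probe sets passed), 1 without mutant array 1 (0.995%) and 1 without mutant array 2 (0.246%). There were 3 without wild type array 1 (2.25%), 5 without mutant array 3 (6.67%), 5 without wild type array 3 (8.33%), and 0 without both arrays numbered 3 (0.262%). Next came the second Dbp probe set (limma adjusted p = 0.0529), a dim Npas2 probe set (0.0869), a dim Tef probe set (0.0880) and Ciart (0.0987).

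Along the number the arms are given side by side as a description. In the arrays numbered 3, 6 of 8 E-box and D-box genes lay below the mean of their own group in both the mutant and the wild type array, and 49.7% of all genes did so too. They were Ciart, Nr1d1, Nr1d2, Dbp, Tef and Per3, whereas Per2 lay above it in both. The arm's median deviation in the arrays numbered 3 was -0.21 in mutant and -0.10 in wild type retina, beside -0.06 and -0.05 over all genes. Markers of other cells moved with these arrays: 8 of 9 pigment epithelium markers lay below their group mean in both arrays numbered 3, with median deviations of -0.18 in mutant and -0.46 in wild type retina. Of the 8 Müller glia markers 3 lay below in both, and 2 passed the test of the number, Rlbp1, a retinoid-binding protein gene, and Apoe, a lipid carrier gene, with mean deviations of -0.55 and -0.49 (limma adjusted p = 0.0189 and 0.0331). Of the rod markers 0 of 8 lay below in both. The part of these markers in the clock gene values was not tested. Of the ROR element arm 0 of 2 lay below in both arrays: Npas2 was above by 0.07 in mutant and 0.21 in wild type retina, while Cry1 deviated by -0.04 and 0.19. In the arrays numbered 1, by contrast, 1 of 8 genes of the larger arm lay below in both (19.4% of all genes), and in those numbered 2 it was 3 of 8 (25.8%). The number 3 was singled out after the values were seen. No label states what the number stands for.

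The probe sets of Per3 did not vary together along the number. The brightest had its lowest value in array 3 of both groups, as given above. The next read 5.01, 5.72 and 6.86 in mutant arrays and 5.96, 6.0 and 7.56 in wild type arrays, so array 3 was the highest in both groups. These are the 2 probe sets that passed the test of the number, with mean deviations of -0.71 and 1.03 in the arrays numbered 3. The 4 others deviated there by -0.21, 0.44, -0.06 and 0.57. A level of Per3 along the number therefore depends on which probe set is read. Tef, Nr1d2 and Per2 likewise had probe sets on both sides of 0 in those arrays, whereas both of Dbp (-0.46 and -0.56) and both of Npas2 (0.14 and 0.27) lay to 1 side.

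**Figure D4:**
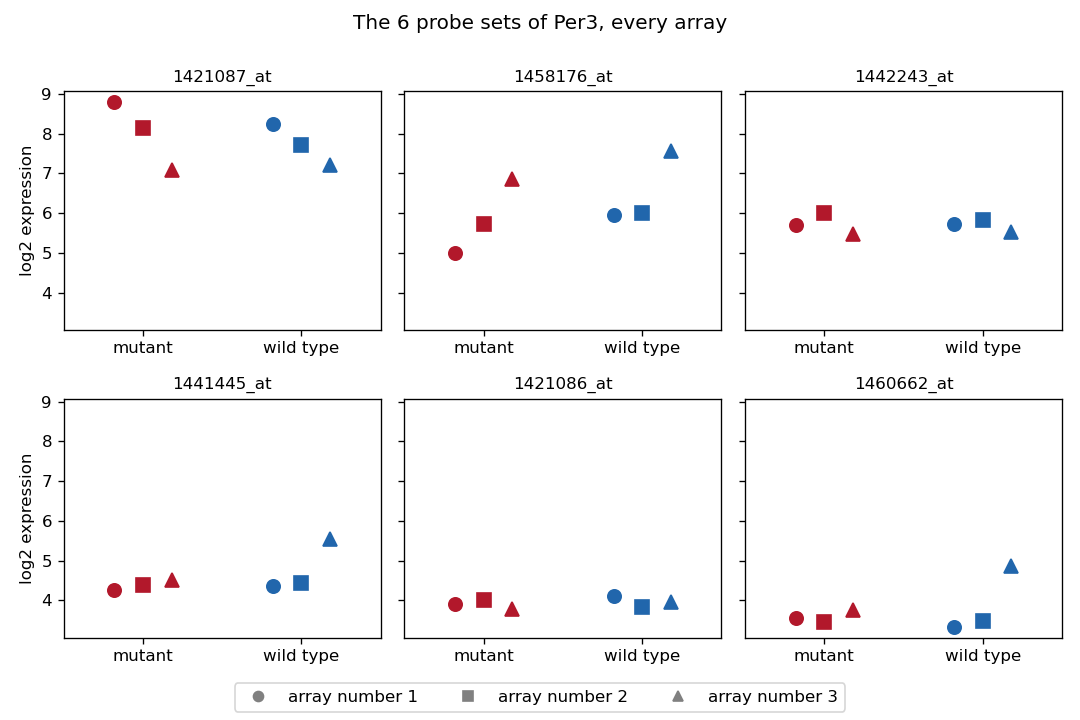
The log2 expression of the 6 probe sets of Per3 is plotted for every array, mutant (red) left of wild type (blue), in order of mean level from top left. Triangles mark the arrays numbered 3, which are lowest for the first probe set (7.09 and 7.21) and highest for the second (6.86 and 7.56).

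Control probe sets for the ends of 2 reference transcripts were read as a measure of RNA integrity. The 3′ minus 5′ difference of Gapdh was 0.03, -0.04 and -0.25 in mutant arrays and -0.16, -0.09 and -0.20 in wild type arrays, lowest in array 3 of each group. That of beta-actin was 0.91, 0.83 and 0.72 in mutant arrays and 0.59, 0.71 and 0.77 in wild type arrays, which did not separate the arrays numbered 3. Their part in the Per3 differences was not tested.

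Other genes of the clock were read from fixed lists. Of 11 measured core clock genes outside the 10, 9 were lower and 2 higher in mutant retina, 0 passed the test by group and 0 had an unadjusted p under 0.05. With the pairs as a block 0 passed and 1, Rorb, had an unadjusted p under 0.05. Their median difference was -0.03. Rorb, an orphan receptor of the retina that binds ROR elements, differed by -0.28 (SE 0.23). Cry2, the second CRY repressor, differed by -0.18 (SE 0.16). Arntl, the partner of CLOCK and NPAS2, differed by -0.12 (SE 0.14), and Clock itself by -0.09 (SE 0.09). By the brightest probe sets, Rora, which activates ROR element genes, and Rorb had the smallest p for the number (limma adjusted p = 0.0548 and 0.0591), with mean deviations of -0.35 and 0.39 in the arrays numbered 3. Dimmer probe sets of both passed it: 2 of Rora deviated the other way, by 0.73 and 0.35 (limma adjusted p = 0.00929 and 0.0488), and 1 of Rorb by 1.44 (0.006).

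Targets were also listed by element. These lists overlap the core clock genes above, which already hold Hlf, Bhlhe40, Bhlhe41, Arntl, Clock and Nfil3. The counts are therefore not separate from those above. Of 7 measured E-box and D-box targets, 6 were lower and 1 higher in mutant retina, at a median of -0.04, with Wee1, a cell cycle kinase gene, at -0.07 (SE 0.13) and the protease gene Usp2 at -0.09 (SE 0.24). Bhlhe41, a repressor at E-boxes, differed by 0.03 (SE 0.13) and Tspan4 by -0.04 (SE 0.17). In the arrays numbered 3, 6 of these 7 lay below their group mean in both groups, again beside 49.7% of all genes. Hlf, the third PAR bZIP factor, and Tspan4 had the smallest p for the number (limma adjusted p = 0.0917 and 0.0954). Of 4 ROR element targets, 2 were lower and 2 higher in mutant retina, Nfil3, a repressor at D-boxes, by 0.10 (SE 0.15) and E2f8 by 0.02 (SE 0.22). In the arrays numbered 3, 1 of the 4 lay below its group mean in both groups. E2f8 had the smallest p for the number (limma adjusted p = 0.0571), and its mean was under the overall median of the probe sets.

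Enzymes that set the stability of PER and CRY proteins also gave 0 calls by group among 13 measured genes, of which 11 were lower and 2 higher. By group 2 had an unadjusted p under 0.05, Btrc and Prkaa2, as with the block. Btrc, a subunit of the ubiquitin ligase that recognises phosphorylated PER, differed by 0.53 (SE 0.16, limma adjusted p = 1), with 8.23, 8.20 and 7.86 in mutant arrays and 7.72, 7.69 and 7.29 in wild type arrays. Its groups did not overlap, as in 4.73% of all probe sets. Its other probe sets differed by 0.40, 0.29, -0.06 and -0.45. Prkaa2, a catalytic subunit of the kinase AMPK, differed by -0.51 (SE 0.20), Fbxl21 of a CRY ligase by -0.25 (SE 0.11) and Fbxw11, a relative of Btrc, by 0.15 (SE 0.09). The brightest probe set of Gsk3b, a kinase gene, passed the test of the number with a mean deviation of -0.32 in the arrays numbered 3 (limma adjusted p = 0.0447). Another 2 of its 6 probe sets passed it the other way, with deviations of 1.6 and 0.78 (0.00381 and 0.0189). A dimmer probe set each of Btrc (0.48), Csnk2a1 (0.86) and Prkaa2 (1.14) also passed it (limma adjusted p = 0.0357, 0.00983 and 0.00779). The mean of Fbxl21 was under the overall median of the probe sets.

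Outputs of the retinal clock likewise gave 0 calls by group and with the block. Of 9 measured genes 7 were higher and 2 lower in mutant retina, at a median of 0.11, and 1 had an unadjusted p under 0.05 by each fit. Th, which encodes the tyrosine hydroxylase of dopaminergic amacrine cells, read 5.82, 5.92 and 5.97 in mutant arrays and 5.66, 5.66 and 5.66 in wild type arrays. The difference was 0.24 (SE 0.09, limma adjusted p = 1), and its groups did not overlap. Adcy1, an adenylyl cyclase gene, differed by 0.21 (SE 0.14), and Drd4, the dopamine receptor gene whose photoreceptor transcript is strongly rhythmic in rodents, by 0.17 (SE 0.14). Aanat, the enzyme before the last of melatonin synthesis, differed by 0.11 (SE 0.10), at a mean under the overall median of the probe sets. Drd4 read 9.68, 10.10 and 9.65 in mutant arrays and 9.61, 9.72 and 9.60 in wild type arrays, so mutant array 2 stood out.

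Genes outside all lists were ranked by how closely their profile over the 6 arrays followed the mean of the E-box and D-box arm. For that mean each gene was centred but not scaled, so widely varying genes such as Per3 and Dbp weigh most. The profile of Per3 depends on the probe set read, as given above. Ackr4, an atypical chemokine receptor gene, had the highest Pearson r, at 0.99 over 6 arrays. Vps11, Ifi27l2b, Mreg, Zfyve26 and Zdhhc2 followed, all at 0.99 when rounded. These points share the arrays' numbers and group differences, and 287 of 4234 genes compared (6.78%) had an r of at least 0.9, so such likeness was common. Ackr4 read 6.97, 6.37 and 5.62 in mutant arrays and 6.77, 6.37 and 6.32 in wild type arrays.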

How the data were processed

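The deposited values are on a log2 scale and came from RMA as run by the authors, per the submitters' processing notes, with no version stated. RMA removes array-wide differences in signal before any test. Per the labels' protocols, RNA came from Trizol and RNeasy extraction and was biotin-labelled. The 64 manufacturer controls stayed out of the tests. In the platform annotation 34945 probe sets carry 1 symbol, 932 carry several and 9160 are not named here. Sequences came from RefSeq (GRCm38.p6).

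Groups were compared with limma 3.58.1 (lmFit, eBayes) in R 4.3.3, p-values adjusted after Benjamini and Hochberg over 45037 probe sets, threshold 0.05. The array number was tested by limma's F test beside group. Across probe sets, the deviations of mutant and wild type arrays of 1 number had correlations of 0.477, 0.469 and 0.563. All exceed 0.1, so arrays of 1 number were treated as pairs, on the evidence of the data alone. Mutant array 1 with wild type array 2 (0.175) and mutant array 2 with wild type array 1 (0.125) exceeded 0.1 too. The other arrays of unlike number had negative correlations. The 0.1 rule alone thus does not single out arrays of 1 number, and the test of the number uses these same values.

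Members and lists were chosen with earlier results of these data known. Named genes are the members, Cdhr1, up to 4 genes per list with the smallest p by group and up to 2 by number, and the 6 most alike in profile. The control ends and the arrays numbered 3 were looked at after the values were seen. Alternatives were other normalizations, filters, variance models, array weights, the block, gene means and leaving out arrays. Scripts were tested on simulated data. Figures used matplotlib 3.10.9. Each array holds a separate pool by its label. Nothing says how separately the pools were processed, so part of the spread may be technical.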

Additional observations from a re-analysis of the deposited data

How the results depend on the processing

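By group 0 of the member probe sets passed under every alternative run, at unadjusted p under 0.05 in 0 to 4. The share of all probe sets under that p was taken only for the fit on group (3.02%) and the block (7.60%). The counts of the other settings therefore have no share beside them. The smallest adjusted p of a member at its brightest probe set was 0.422, for Ciart with array weights, so the replicate block changed no call. The number test gave 2 calls, and 1 for the number alone with no group term (3.15% of all probe sets passed). It gave 0 with the probe sets of each gene averaged (0.0715% of all genes passed). With trend and robust eBayes it gave 3 (5.42% of all probe sets), and without single arrays 0 to 5. The share of all probe sets moved too, from 3.70% to 6.67% and 8.33% without replicate 3 of the mutant and of the wild type group (5 calls each) and to 0.209% without wild type replicate 2 (0 calls). Dropping both arrays of number 3, a setting chosen after seeing the data, gave 0 (0.262%). All but the calls for Per1, Dbp and Nr1d2 in some settings belonged to Per3.

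Signs of small differences turned. With array weights these were Per1 at 0.0011, Per2 at 0.0535, Nr1d2 at 0.0015 and Npas2 at 0.0732. With gene means they were Per3 at -0.18, Tef at -0.0813 and Npas2 at 0.0473. Without both arrays of number 3 they were Per1 at 0.15, Per2 at 0.0453, Cry1 at 0.0072, Dbp at 8e-04, Nr1d2 at 0.044 and Npas2 at 0.0546. Without single arrays the ranges were -0.31 to 0.13 for Per1, -0.0785 to 0.11 for Per2, -0.11 to 0.74 for Per3, -0.50 to 0.094 for Dbp, -0.10 to 0.14 for Tef, -0.12 to 0.0572 for Nr1d2 and -0.12 to 0.0885 for Npas2. Ciart (-0.52 to -0.25), Nr1d1 (-0.27 to -0.04) and Cry1 (-0.23 to -0.01) kept their sign there. The medians of the E-box and D-box arm and the ROR element arm ranged from -0.15 to -0.001 and from -0.17 to 0.04 without single arrays and were -0.18 and -0.03 with gene means. The cause of these turns was not tested. Cry1 had no probe set left without those that can cross-hybridise, and Npas2 none above the overall median. Signal near background limits Npas2.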

Other observations

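Genes that respond to light and neuronal activity within minutes were read as a further list. Of 12 measured genes, 7 were higher and 5 lower in mutant retina, 0 passed by group or with the replicate block, and 1 (Junb) and 2 (Junb and Nr4a1) had an unadjusted p under 0.05. Junb, an AP-1 subunit gene, read 5.89, 6.11 and 5.77 in mutant arrays and 5.15, 5.32 and 4.75 in wild type arrays, and its groups did not overlap. The difference was 0.85 (SE 0.17, limma adjusted p = 0.784, or 0.0871 with the block). Egr1 differed by -0.64 (SE 0.50), Nr4a1 by -0.29 (SE 0.20) and Fosb, at a mean under the overall median of the probe sets, by 0.15 (SE 0.12). Within pairs 1, 2 and 3 Egr1 differed by 0.10, -1.88 and -0.13, so pair 2 stood out. In the arrays numbered 3, 9 of the 12 lay below their group mean in both groups, beside 49.7% of all genes.

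Genes induced by glucocorticoids, hormones with a daily rhythm that also induce Per1, gave 0 calls by group or with the block among 9 measured genes, and 0 at an unadjusted p under 0.05 by either fit. Pdk4 differed by 0.18 (SE 0.10), Cdkn1a by 0.19 (SE 0.14), Fkbp5 by 0.14 (SE 0.13) and Sult1a1 by 0.11 (SE 0.13). The mean of Pdk4 was under the overall median of the probe sets. The list's median difference was 0.08.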
